A study of Mus musculus with 5 samples.

Results

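Basal-like cells of mammary tumor organoids that carried much mRNA of the simple epithelial keratin Krt8 were compared with basal-like cells that carried little of it, all from organoids grown in basement membrane extract (BME). Cells were sequenced singly, 1 to a well of a 384-well plate. The wells were chosen by their keratin mRNA, in units of counts per 10,000 counts of the well: a well was basal where Krt5, Krt14 and Krt17 together came to at least 5, Krt8-high where Krt8 came to at least 5, and Krt8-low where Krt8 was under 2. This gave 36 Krt8-high wells (14, 13 and 9 on BME plates 1, 2 and 3) and 82 Krt8-low wells (26, 29 and 27), that is 118 of the 257 basal wells of BME and of the 1255 wells of the 5 plates analysed that passed the filter on counts and genes. The other 139 basal wells, with Krt8 from 2 to under 5, are called intermediate, and the 553 wells under the basal threshold are called non-basal.

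The organoids came from mammary carcinomas of MMTV-PyMT mice, in which the mouse mammary tumor virus promoter drives the polyoma middle T oncogene in mammary epithelium. They were grown in BME, isolated, and embedded again in BME or in Collagen I for 5 days, then dissociated with trypsin and sorted as live single cells. The 5 plates analysed here were 3 of BME, labelled as not invading, and replicates 1 and 3 of Collagen I. All cells, the Krt8-low wells included, carried the same oncogene and were cultured in the same medium with FGF2, and no source says that the plates were separate cultures, so the spread between plates may be technical.

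Keratins are the intermediate filaments of epithelial cells and work in pairs. Krt5 and Krt14 mark the basal layer of the mammary gland, whereas Krt8 and its partner Krt18 mark the luminal layer, and cells with both are seen in development, in injury and in tumors. Krt17 is a keratin of stressed and activated basal epithelium.

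The keratins that chose the wells are described here without a test. Krt8 in the summed wells was 776, 619 and 1768 CPM (counts per 1000000 counts) on plates 1, 2 and 3 in the Krt8-high group and 136, 140 and 132 CPM in the Krt8-low group. On plate 3 a single well, described further on, held much of the Krt8 of its group, and the plate had 852 CPM without it. The wells nearest to the upper threshold had 4.99 and 5.00 counts of Krt8 per 10,000, and those nearest to the lower one 1.99 and 2.01, so the classes cut a continuous range. Krt14 was 1148, 1781 and 1518 CPM in the Krt8-high wells against 1035, 1016 and 811 CPM in the Krt8-low wells, and Krt5 was 1562, 2392 and 1261 CPM against 2160, 1243 and 1279 CPM. The non-basal wells, which were not selected on Krt8, had a Krt8 sum of 375, 334 and 336 CPM.

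**Figure D1:**
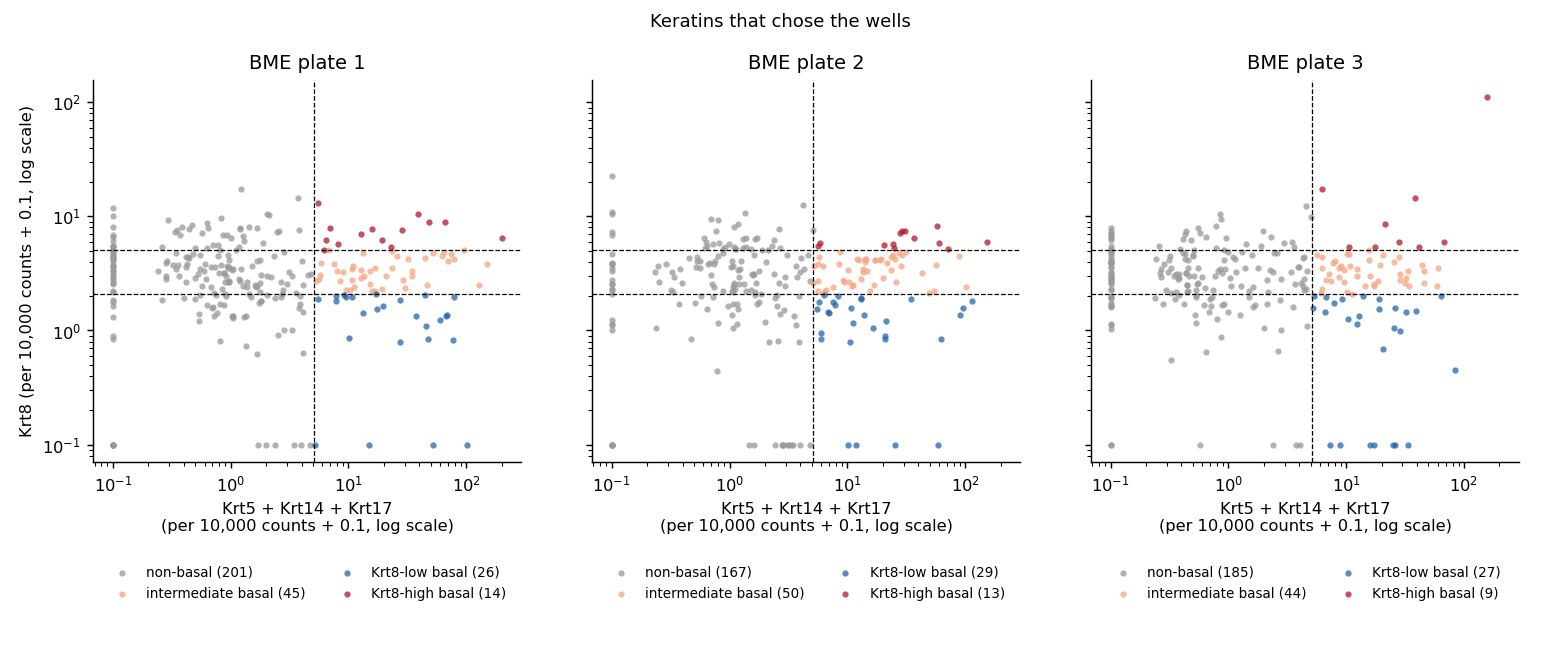
Each point is a well of a BME plate, with the sum of Krt5, Krt14 and Krt17 on the x axis and Krt8 on the y axis, both as counts per 10,000 counts of the well plus 0.1 on log scales; dashed lines are the thresholds and the legend gives the number of wells. Krt8-high wells (14, 13 and 9) span the whole basal range, and 1 well of plate 3 lies far above the rest.

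The 2 groups were sequenced to a like depth. The median well held 21611 counts (5036 genes) in the Krt8-high group and 21207 counts (4930 genes) in the Krt8-low group, although the order differed between plates, with medians of 17602, 37838 and 20798 counts against 16151, 23995 and 25603. The summed groups held 221516 to 450731 counts per plate for Krt8-high and 582243 to 759669 for Krt8-low. The basal label held for genes outside the rule: Trp63, Cdh3 and Itga6 summed to 429 to 480 CPM in Krt8-high, 366 to 427 CPM in Krt8-low and 131 to 140 CPM in non-basal wells. Of the 10 luminal markers, the 9 other than Krt8 summed to 776 to 1756 CPM in Krt8-high, 735 to 948 CPM in Krt8-low and 2025 to 2385 CPM in non-basal wells. Of these 9 only Cd14, Epcam and Krt18 were tested, and only Krt18 had a call. Elf5 and Kit, which mark luminal progenitors, were at 0 in all 3 Krt8-high sums and at 0 to 5.15 CPM in the Krt8-low sums, and Cd14, another such marker, was at 204 to 625 CPM and 351 to 570 CPM. Of the 5 myoepithelial markers, Acta2, Myh11 and Cnn1 were at 0 in both groups. The 6 fibroblast markers summed to at most 42.1 CPM in any group, the 3 endothelial markers to at most 10.3 CPM, the leukocyte markers to at most 3.44 CPM, and the adipocyte marker that was listed stood at 0 in both groups. The part of doublets of a basal and a luminal cell was not tested.

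Of 6678 genes tested with edgeR's quasi-likelihood test on the sums, paired by plate, 45 were higher in Krt8-high wells (0.674% of genes tested) and 11 were lower (0.165%), 0.839% in all, at a Benjamini-Hochberg adjusted p under 0.05. At an unadjusted p under 0.05 there were 764. All 45 were higher on each of the 3 plates and all 11 lower on each. In 39 of the 45 every Krt8-high sum lay above every Krt8-low sum, beside 8.39% of all genes tested, and in 10 of the 11 every one lay below, beside 5.86%. Since the same sums gave the calls, these shares are a description. The count rested on the plates: without plate 1 a single gene was called (Spp1), without plate 2 146, and without plate 3 243, while the direction of all 56 genes stayed the same in each of these fits. Fitted without the plates as pairs, 7 genes were called. An exact sign-flip test over 3 plates cannot give a p below 0.25, so no single gene was tested that way.

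Krt18 joined Krt8. The partner keratin, whose gene lies 23.7 kb from Krt8 in the mm10 genome (Krt8 at chr15:101996698-102004482 on the minus strand, Krt18 at chr15:102028180-102032027 on the plus strand), was 152, 176 and 673 CPM in Krt8-high and 46.4, 83.0 and 81.0 CPM in Krt8-low wells. It was higher on each plate and the groups did not overlap (log2 fold change 1.98, SE 0.32, edgeR adjusted p = 0.0131). A share of 80.6% of Krt8-high wells had a Krt18 count (29 of 36) against 64.6% of Krt8-low wells (53 of 82) and 86.6% of non-basal wells. Other simple epithelial keratins were too low to test: Krt19 was 0, 37.7 and 31.6 CPM in Krt8-high and 5.15, 2.63 and 5.49 CPM in Krt8-low wells, and Krt7 reached 86.0 CPM on plate 3 only.

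The hypoxia and glycolysis list held more of the higher genes than any other list. Cells short of oxygen stabilize hypoxia-inducible factors, which raise genes for glycolysis, pH control, mitophagy and vessel growth. Of 33 genes listed for hypoxia and glycolysis, 28 were tested, 7 were higher and none lower. The median log2 fold change of the 28 was 0.60, beside -0.0047 over all genes tested, and 22 of the 28 were higher on every plate, beside 18.0% of all genes tested. The list's median difference on the scale of log2(CPM + 1) was 1.05, 0.80 and 0.27 on plates 1, 2 and 3, so plate 3 showed the least.

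Ero1l, an oxidase that helps proteins fold in the endoplasmic reticulum, was 1136, 733 and 932 CPM in Krt8-high and 165, 348 and 368 CPM in Krt8-low wells. Every Krt8-high sum was above every Krt8-low sum (log2 fold change 1.66, SE 0.24, edgeR adjusted p = 0.0108). Vegfa, the main growth factor for vessels, was 798, 860 and 398 CPM against 210, 290 and 323 CPM, with the smallest gap on plate 3 (log2 fold change 1.26, SE 0.23, edgeR adjusted p = 0.0243). Car9, a surface carbonic anhydrase that exports acid, was 936, 750 and 403 CPM against 289, 272 and 272 CPM (log2 fold change 1.23, SE 0.18, edgeR adjusted p = 0.0108). Its Krt8-low level hardly varied between plates, so the spread came from the Krt8-high wells. Ddit4, an inhibitor of mTORC1, was 352, 289 and 348 CPM against 160, 120 and 129 CPM (log2 fold change 1.23, SE 0.16, edgeR adjusted p = 0.00824).

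The mitophagy receptors Bnip3 and Bnip3l moved together. Bnip3 was 764, 407 and 339 CPM against 203, 183 and 242 CPM (log2 fold change 1.17, edgeR adjusted p = 0.0223), and Bnip3l was 516, 576 and 480 CPM against 199, 284 and 316 CPM (log2 fold change 0.96, edgeR adjusted p = 0.0131). Ndrg1, a stress-induced protein, was 411, 867 and 231 CPM against 75.6, 236 and 165 CPM, where the groups overlapped across plates though each plate showed the rise (log2 fold change 1.59, edgeR adjusted p = 0.0132). Outside the list, the glycogen synthase Gys1 had a log2 fold change of 1.41 (edgeR adjusted p = 0.0108) and the transcriptional repressor Bhlhe40 one of 1.93 (edgeR adjusted p = 0.0325). Among the 21 listed genes that did not pass, P4ha2, a collagen prolyl hydroxylase, had a log2 fold change of 1.52 (edgeR adjusted p = 0.0571), Egln3 1.59 (adjusted p = 0.0558), the glucose transporter Slc2a1 0.77 (adjusted p = 0.0688) and the glycolytic enzyme Aldoa 0.64 (adjusted p = 0.0669). Car12 was the 1 tested member with a negative value (-0.10).

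The promoters of 3 of these genes are shown because the data bear on genes that moved together and because hypoxia-inducible factors bind a short core, ACGTG. They are taken from RefSeq on GRCm38.p6 and run from 250 bases before to 50 bases after the start site, read on the strand of the gene. Capitals mark each ACGTG or its reverse complement CACGT, and where both overlap they read CACGTG.
Bnip3, minus strand, chr7:138909457-138909756: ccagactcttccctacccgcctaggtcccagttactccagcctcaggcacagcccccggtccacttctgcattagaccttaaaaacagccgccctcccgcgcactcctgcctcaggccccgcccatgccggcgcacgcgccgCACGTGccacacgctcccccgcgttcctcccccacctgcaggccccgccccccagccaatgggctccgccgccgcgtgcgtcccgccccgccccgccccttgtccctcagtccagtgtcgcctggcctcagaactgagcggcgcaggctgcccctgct
Car9, plus strand, chr4:43506776-43507075: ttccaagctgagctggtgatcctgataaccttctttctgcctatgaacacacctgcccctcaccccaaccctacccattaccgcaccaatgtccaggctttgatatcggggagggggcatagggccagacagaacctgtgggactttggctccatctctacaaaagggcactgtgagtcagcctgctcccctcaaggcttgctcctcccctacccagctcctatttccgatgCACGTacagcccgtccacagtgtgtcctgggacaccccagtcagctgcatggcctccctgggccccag
Ero1l, minus strand, chr14:45318523-45318822: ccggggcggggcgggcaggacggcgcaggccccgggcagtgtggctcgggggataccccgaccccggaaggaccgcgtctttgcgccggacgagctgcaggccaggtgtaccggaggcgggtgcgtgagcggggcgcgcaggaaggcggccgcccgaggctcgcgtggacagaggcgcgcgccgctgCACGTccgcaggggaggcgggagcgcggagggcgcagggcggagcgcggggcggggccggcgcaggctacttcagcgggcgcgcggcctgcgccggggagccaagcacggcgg
The first match began 108 bases before the start site in Bnip3, 18 bases before it in Car9 and 63 bases before it in Ero1l. Of the 7 called hypoxia genes 5 had an entry in the promoter table, and each of the 5 held the core in at least 1 listed promoter. The core stood in 19.6% of all 32851 promoters of this length and in 21.8% of all genes with an entry. Among the 45 higher genes, 33 had an entry and 10 of them (30.3%) held it. The core of the TEAD site, GGAATG, was counted in the same promoters. It stood in 15.2% of the 33 higher genes, 16.6% of all genes with an entry and 0 of the 5 hypoxia genes. The listed hypoxia genes without a call were not counted, so the 5 genes cannot tell whether the core went with the Krt8 contrast or with membership of the list. A match describes the letters in these windows and is not a binding site.

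Of 41 listed genes of the actin cytoskeleton 39 were tested, 4 were higher and none lower. The median log2 fold change was 0.40, and 26 of 39 were higher on every plate, beside 18.0% of all genes tested. Flna, which crosslinks actin and ties it to integrins, was 536, 698 and 520 CPM in Krt8-high and 303, 386 and 235 CPM in Krt8-low wells (log2 fold change 0.90, SE 0.14, edgeR adjusted p = 0.0131). Anxa2, a membrane and actin binding annexin, was 682, 675 and 525 CPM against 280, 379 and 289 CPM (log2 fold change 0.95, edgeR adjusted p = 0.0108). Cytoplasmic gamma actin, Actg1, had the smallest fold with a call, 8705, 8608 and 8267 CPM against 6450, 5754 and 5289 CPM (log2 fold change 0.51, SE 0.10, edgeR adjusted p = 0.0292). The calponin Cnn2 had a log2 fold change of 0.89 (edgeR adjusted p = 0.0221). The median differences of this list were 0.41, 0.40 and 0.43 on plates 1, 2 and 3 (log2 of CPM + 1), so the plates were alike. Outside the list, Espn, an actin bundling protein, was 174, 68.8 and 99.4 CPM against 20.6, 25.01 and 31.6 CPM (log2 fold change 2.01, SE 0.32, edgeR adjusted p = 0.0118).

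Vim, the intermediate filament of mesenchymal cells that basal mammary cells also express, was 426, 664 and 666 CPM in Krt8-high and 144, 350 and 398 CPM in Krt8-low wells. The groups did not overlap (log2 fold change 1.01, SE 0.16, edgeR adjusted p = 0.0118). It was the 1 called gene of 11 tested on the list of epithelial-mesenchymal transition factors and cadherins, whose median was 0.32. Snai2 was 93.2, 122 and 76.7 CPM against 110, 116 and 117 CPM (edgeR adjusted p = 0.710), and Cdh2 was 112, 95.4 and 72.2 CPM against 79.0, 117 and 74.1 CPM (edgeR adjusted p = 0.999). For both, the plates overlapped. Twist1 was too low to test, at 0 to 24.8 CPM.

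Of 24 targets of YAP and TEAD, 16 were tested and 2 were higher, the matricellular proteins Ctgf and Cyr61, while the median of the list was 0.09 and 9 of 16 had a positive value. Ctgf was 34.2, 187 and 194 CPM in Krt8-high and 20.6, 36.9 and 64.5 CPM in Krt8-low wells (log2 fold change 1.72, SE 0.28, edgeR adjusted p = 0.0134). Cyr61 was 96.3, 378 and 276 CPM against 60.1, 117 and 83.7 CPM (log2 fold change 1.42, SE 0.23, edgeR adjusted p = 0.0123). In both, plate 1 was low in both groups and the groups overlapped across plates. Yap1 itself was 118, 97.7 and 154 CPM against 112, 105 and 104 CPM (log2 fold change 0.13, SE 0.21, edgeR adjusted p = 0.878), and the list's other tested members ranged from -1.06 (Asap1) to 0.62 (Igfbp3) on the log2 scale, none with a call.

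Of 45 genes of the matrix and its remodelling, 24 were tested and 2 were higher. These were Plod1, a collagen lysyl hydroxylase, at 127, 187 and 90.4 CPM against 39.5, 61.9 and 48.0 CPM (log2 fold change 1.39, SE 0.23, edgeR adjusted p = 0.0132), and Adamts1, a secreted protease, at 71.4, 174 and 113 CPM against 27.5, 58.0 and 30.2 CPM (log2 fold change 1.58, SE 0.24, edgeR adjusted p = 0.0116). The median of the list was 0.59, and 13 of 24 were higher on every plate, beside 18.0% of all genes tested. The laminin and hemidesmosome list had a median of 0.29 over 19 genes with no call, and the integrins a median of 0.31 over 7 genes with no call. Itgb1 was 389, 554 and 371 CPM against 322, 365 and 337 CPM (edgeR adjusted p = 0.445).

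Immediate early genes, which switch on within minutes of a stimulus and also during dissociation of tissue, had 3 calls among 22 tested of 34 listed. Their median was 0.55, and 12 of 22 were higher on every plate, beside 18.0% of all genes tested. Jun, a subunit of AP-1, was 124, 187 and 244 CPM in Krt8-high and 61.8, 57.9 and 81.0 CPM in Krt8-low wells (log2 fold change 1.42, SE 0.21, edgeR adjusted p = 0.0108). Ier3, an early gene that is also a target of NF-kB, was 155, 216 and 285 CPM against 24.0, 84.3 and 71.3 CPM (log2 fold change 1.85, SE 0.24, edgeR adjusted p = 0.00681). Egr1, a zinc finger factor, was 211, 615 and 289 CPM against 79.0, 286 and 191 CPM, with overlap across plates (log2 fold change 0.99, edgeR adjusted p = 0.0178). The part of dissociation in these values was not tested. Of 15 tested genes for NF-kB and chemokines, Ier3 was the 1 call and the median was 0.17; outside the list the chemokine Cx3cl1 was 242, 453 and 453 CPM against 80.7, 225 and 196 CPM (log2 fold change 1.20, edgeR adjusted p = 0.00824).

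Spp1, the secreted phosphoprotein osteopontin, had the largest log2 fold change of the higher genes. It was 99.5, 244 and 313 CPM in Krt8-high and 15.5, 46.1 and 39.8 CPM in Krt8-low wells, a 6.24-fold difference (log2 fold change 2.64, SE 0.22, edgeR adjusted p = 0.000459). It is expressed by luminal cells too, and the non-basal wells averaged 377 CPM, above the Krt8-high mean of 219 ± 109 CPM (SD, n = 3). Clu, a secreted chaperone, was 224, 195 and 446 CPM against 138, 104 and 165 CPM (log2 fold change 1.00, edgeR adjusted p = 0.0352), and these were the 2 calls among 10 tested milk and luminal secretory genes, whose median was 0.04. Cldn7, a tight junction claudin, was 40.4, 97.8 and 63.2 CPM against 10.3, 22.4 and 21.9 CPM (log2 fold change 1.85, SE 0.32, edgeR adjusted p = 0.0178). It was the 1 call among 15 tested junction and desmosome genes, whose median was 0.22.

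**Figure D2:**
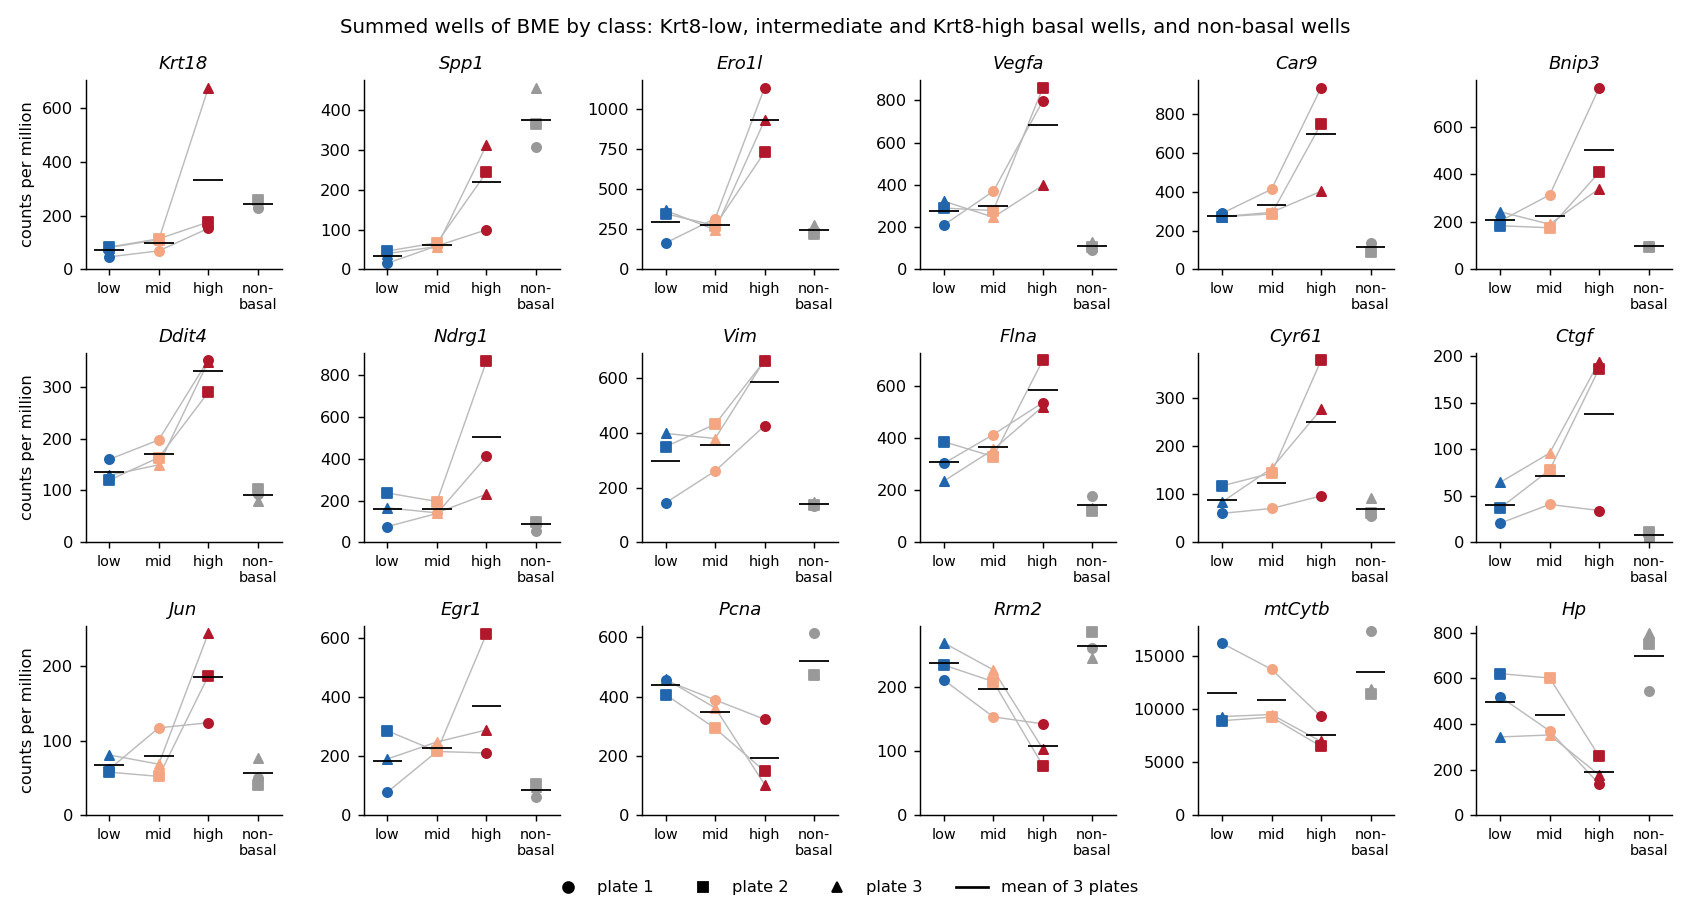
Each panel gives 1 gene in CPM of the summed wells (y axis, from 0) for Krt8-low, intermediate and Krt8-high basal wells and for non-basal wells (x axis); markers are the 3 BME plates, grey lines join the basal sums of a plate and black bars are means of 3 plates. For Ero1l the Krt8-high sums lie between 733 and 1136 CPM and the intermediate mean, 279 CPM, is near the Krt8-low mean of 294 CPM.

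Of 22 tested basal identity genes none was called, with a median of 0.19. Trp63, the master regulator of basal epithelium, was 174, 231 and 167 CPM in Krt8-high and 175, 165 and 173 CPM in Krt8-low wells (log2 fold change 0.13, SE 0.18, edgeR adjusted p = 0.847). Itga6 was 186, 178 and 194 CPM against 112, 140 and 173 CPM (edgeR adjusted p = 0.445), and Cdh3 was 90.0, 71.0 and 67.7 CPM against 125, 61.9 and 80.9 CPM (edgeR adjusted p = 0.779). Of 11 tested luminal identity genes Krt18 was the 1 call, with a median of 0.17. Cd14, a luminal progenitor marker, was 625, 204 and 513 CPM against 570, 360 and 351 CPM, and 1536 CPM on average in non-basal wells (log2 fold change -0.07, SE 0.22, edgeR adjusted p = 0.933). A p above the threshold does not show that these levels were equal. The Notch list had no call among 9 tested genes (median 0.15), with the ligand Jag1 at 59.0, 156 and 99.3 CPM against 85.9, 90.9 and 97.4 CPM, and the myoepithelial contractile list had none among 5 (median 0.47).

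The lower genes included enzymes of DNA synthesis. Of 37 S phase genes 31 were tested, 2 were lower and none higher, the median log2 fold change was -0.75, and all 31 values were negative. On every plate 17 of the 31 were lower, beside 14.9% of all genes tested. Pcna, the sliding clamp of the replication fork, was 324, 149 and 104 CPM in Krt8-high and 455, 407 and 460 CPM in Krt8-low wells (log2 fold change -1.31, SE 0.23, edgeR adjusted p = 0.0206). Rrm2, the regulatory subunit of ribonucleotide reductase, was 143, 77.7 and 104 CPM against 212, 235 and 269 CPM (log2 fold change -1.20, SE 0.21, edgeR adjusted p = 0.0206). The list's median difference was -0.06 on plate 1, -1.33 on plate 2 and -1.41 on plate 3 (log2 of CPM + 1), so it rested on plates 2 and 3. The G2/M list had no call among 47 tested genes and a median of -0.08. Its median difference was -0.05, 0.57 and -0.63 on plates 1, 2 and 3 (log2 of CPM + 1), so plates 2 and 3 ran opposite ways. Wells with at least 2 counts per 10,000 of 10 mitotic markers made up 71.4%, 61.5% and 55.6% of the Krt8-high wells and 65.4%, 55.2% and 70.4% of the Krt8-low wells. Smc2, a condensin subunit, was also lower (log2 fold change -1.33, edgeR adjusted p = 0.0313), and the cell cycle kinase Cdk4 was 523, 398 and 452 CPM against 566, 416 and 492 CPM (edgeR adjusted p = 0.744).

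Of 17 tested genes of chromosome M, the mitochondrial genome, 2 were lower, with a median of -0.40. On every plate 10 of the 17 were lower, beside 14.9% of all genes tested. mtNd3, a subunit of complex I, was 2927, 2177 and 2335 CPM in Krt8-high and 6255, 3152 and 3723 CPM in Krt8-low wells (log2 fold change -0.81, SE 0.13, edgeR adjusted p = 0.0118), and mtCytb, of complex III, was 9331, 6511 and 6974 CPM against 16246, 8933 and 9323 CPM (log2 fold change -0.60, edgeR adjusted p = 0.0228). The list's median difference was -0.66, -0.44 and -0.05 on plates 1, 2 and 3 (log2 of CPM + 1), beside -0.06 over all genes tested on plate 3. On plate 3 all listed genes summed to 134480 CPM in Krt8-high and 133070 CPM in Krt8-low wells, so the list showed no drop there. The median well held 9.36%, 10.9% and 10.0% of its counts on chromosome M in Krt8-high and 18.1%, 10.6% and 12.2% in Krt8-low wells, so the gap was widest on plate 1. The part of RNA quality in these values was not tested. With only wells under 20% on chromosome M, a restriction chosen after seeing the data, 76 genes were called, 46 of them among the 56. Nuclear genes of oxidative phosphorylation had a median of -0.16 over 76 genes, with 67 values negative, cytosolic ribosomal protein genes -0.18 over 75 genes, with 73 negative, and the Myc and ribosome biogenesis list -0.36 over 41 genes, with 36 negative; none of these 3 lists had a call.

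The other lower genes were of mixed kind. Hp, the hemoglobin-binding haptoglobin, was 137, 258 and 176 CPM in Krt8-high and 519, 621 and 343 CPM in Krt8-low wells (log2 fold change -1.43, SE 0.19, edgeR adjusted p = 0.00824). Steap4, a metalloreductase, was 127, 138 and 90.3 CPM against 337, 306 and 162 CPM (log2 fold change -1.21, SE 0.19, edgeR adjusted p = 0.0116). Cmah, the hydroxylase of sialic acid, was 83.9, 86.6 and 58.7 CPM against 344, 281 and 171 CPM (log2 fold change -1.83, SE 0.20, edgeR adjusted p = 0.00287). Id3, an inhibitor of differentiation factors, was 103, 68.8 and 31.6 CPM against 189, 176 and 143 CPM (log2 fold change -1.37, SE 0.23, edgeR adjusted p = 0.0143). Dmkn, an epidermal secreted protein, was 31.0, 37.7 and 22.6 CPM against 73.9, 100 and 52.2 CPM (log2 fold change -1.36, edgeR adjusted p = 0.0450). In all 5 the Krt8-high sums lay below every Krt8-low sum. Wif1, a Wnt inhibitor named because it had the most negative value of all calls, was 12.4, 2.22 and 9.03 CPM against 55.0, 47.4 and 26.1 CPM (log2 fold change -2.65, edgeR adjusted p = 0.0382). Its Krt8-high sums held only 4, 1 and 2 counts, and the non-basal wells averaged 153 CPM.

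**Figure D3:**
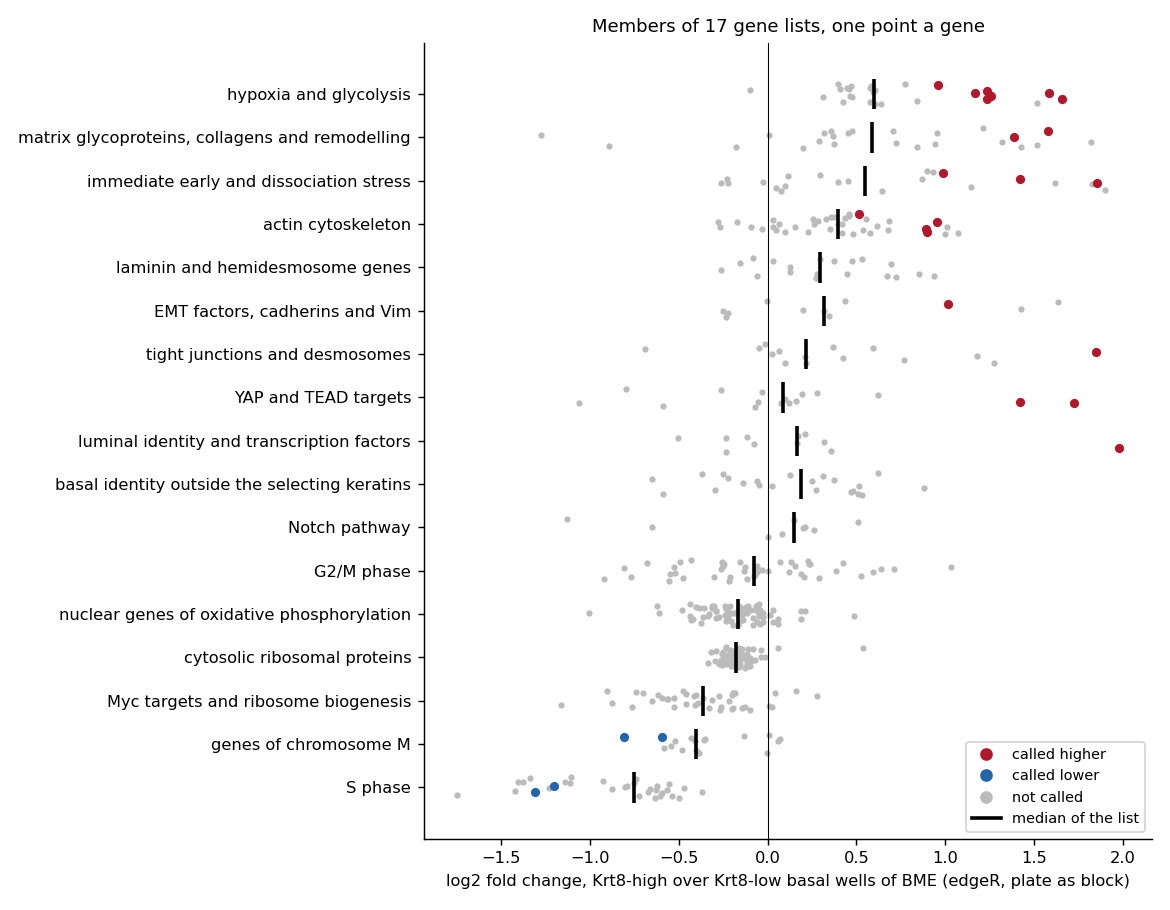
Each point is a tested gene, placed by its log2 fold change between Krt8-high and Krt8-low basal wells of BME (x axis, edgeR with plate as block) within its list (y axis); red and blue points passed the test and black bars are list medians. The hypoxia list has 7 red points and a median of 0.60, and all 31 points of the S phase list lie left of 0.

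The intermediate wells, which entered neither group, lay between them for most of the called genes. For 52 of the 56 the mean intermediate level was between the means of the 2 groups, beside 44.4% of all genes tested. Of these 52, 42 were among the 45 higher genes. These genes were chosen for the gap between the 2 groups, so the count is a description. Flna had 308 ± 75.7 CPM (SD, n = 3) in Krt8-low, 366 CPM in intermediate and 585 ± 98.3 CPM in Krt8-high wells, whereas Ero1l had 294 ± 112, 279 and 934 ± 202 CPM, so that the intermediate wells stood with the Krt8-low wells. The non-basal wells did not continue the order. For 29 of the 45 higher genes their mean was below the Krt8-low mean, for 12 it lay between the 2 groups, and for 4 (Spp1, Cldn7, Clu and Phlda1) it was above the Krt8-high mean. Flna averaged 143 CPM and Vim 139 CPM in non-basal wells, Car9 averaged 113 CPM, and Krt18 averaged 244 CPM.

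Sums over wells can rise through many wells or through a few, and the genes differed in this. Of the 23 named genes with a higher call, 21 had a count in a larger share of Krt8-high than of Krt8-low wells, and for 18 the median well was higher. The genes were called on sums over these same wells, so both counts are a description. Espn had a count in 28 of 36 Krt8-high wells (77.8%) and 24 of 82 Krt8-low wells (29.3%), and in 27.8% against 4.88% once every well had been thinned to 2000 counts. Bhlhe40 had one in 66.7% against 29.3% (11.1% against 4.88% thinned). The median Ero1l level was 5.54 per 10,000 in Krt8-high and 1.30 in Krt8-low wells, and that of Vegfa 5.47 and 1.61, with counts in 61.1% against 29.3% of thinned wells for Vegfa. The targets of YAP were spread otherwise. Ctgf had a count in 30.6% of Krt8-high wells and 30.5% of Krt8-low wells, and Cyr61 in 18 of 36 against 48 of 82 (58.5%), with a median of 0.08 against 0.66 per 10,000, so that their higher sums did not come with a larger share of wells with a count at full depth. After thinning, the shares were 19.4% against 10.98% for Ctgf and 27.8% against 17.1% for Cyr61. A single well held 40.2% of the Spp1 counts of the Krt8-high group, 30.0% of those of Cyr61 and 25.4% of those of Ctgf, but 14.3% of those of Ero1l and 10.2% of those of Vim. When every well was given the same weight, an alternative chosen after seeing the data, 30 genes were called by limma, 26 of them among the 56, and the sign of all 56 stayed the same.

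**Figure D4:**
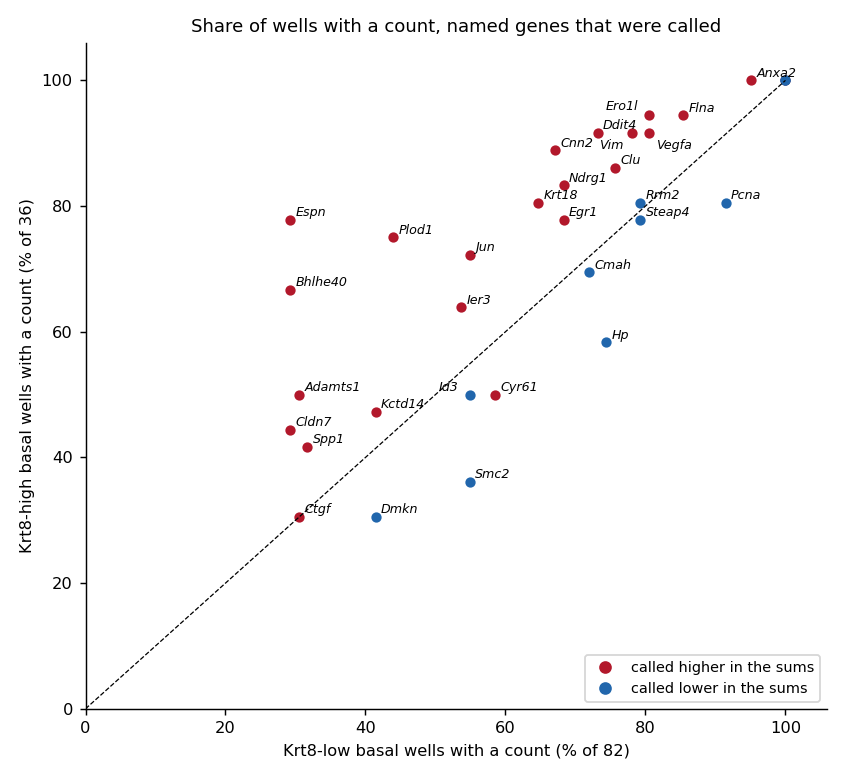
Each point is a named gene that passed the test, with the share of the 82 Krt8-low wells that had a count on the x axis and the share of the 36 Krt8-high wells on the y axis, both in percent; red marks genes called higher and blue genes called lower in the sums, the dashed line marks equal shares, and genes over 97% on the x axis have no name. Espn (29.3% and 77.8%) is far above the line, while Ctgf lies on it and Cyr61 below it.

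A single well on plate 3 stood apart from the other Krt8-high wells. It held 19327 counts, with 111 per 10,000 of Krt8, 46.0 of Krt18, 77.4 of Krt17, 109 of Fn1 and 34.4 of Tnc, 2 matrix glycoproteins, and no count of Spp1. It supplied 54.8% of the Krt8, 59.6% of the Krt18, 76.9% of the Fn1 and 91.7% of the Tnc counts of its group on that plate. Its share was 77.7% for Krt17 and 34.1% for Vim. Fn1 was 118, 93.4 and 1235 CPM in Krt8-high and 84.2, 84.3 and 158 CPM in Krt8-low wells, and Tnc 28.0, 73.3 and 327 CPM against 49.8, 65.9 and 24.7 CPM; neither passed the test (edgeR adjusted p = 0.201 and 0.483). Without this well plate 3 had 304 CPM of Fn1, 28.8 CPM of Tnc and 289 CPM of Krt18. Vim was then 468 CPM and Krt17 207 CPM, beside 398 and 288 CPM in the Krt8-low wells of that plate. The fit without it, chosen after seeing the data, called 46 genes, 45 of them among the 56.

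The same rule was applied to the 2 Collagen I plates as a description, with no test. There 131 basal wells were Krt8-high (66 and 65), 13 intermediate and 14 Krt8-low (3 and 11), so that the Krt8-low sums came to only 66158 counts in all, beside 626348 for Krt8-high. Of the 45 genes higher in BME, 42 had at least 5 expected counts in the Collagen I Krt8-low wells, and 29 of the 42 were higher in the Krt8-high wells over the pooled plates, 69.0% beside 57.5% of all 2209 genes measured so. On both plates 23 of the 42 were higher, 54.8% beside 33.7%, and 2 were lower, 4.76% beside 19.6%. Krt18 was 839 CPM in Krt8-high and 257 CPM in Krt8-low wells of Collagen I, Vim 865 against 423 CPM, and Flna 800 against 318 CPM. Of the 7 hypoxia genes called in BME, 5 were higher in the Krt8-high wells over the pooled plates and 4 on both plates. Among them Ddit4 was 791 against 378 CPM and Car9 821 against 575 CPM, both higher on each plate. Ero1l was 1460 against 1409 CPM pooled, but 1204 against 555 CPM on plate 1 and 1847 against 1774 CPM on plate 3. Vegfa was 1704 against 2150 CPM pooled, higher on plate 1 and lower on plate 3. CPM values given here without a plate are of the pooled plates. The pooled groups drew unequally on the plates. Krt8-high held 376889 counts on plate 1 and 249459 on plate 3, and Krt8-low 19821 and 46337. A pooled difference can therefore also reflect the plates. With 3 Krt8-low wells on 1 of the plates, the counting error of any single gene is large.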

How the data were processed

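The authors deposited 1 table per plate of estimated transcript counts per gene and well, made from CEL-Seq2 (SORT-seq) libraries with molecular identifiers of 4 bases; the expected counts are not whole numbers, and per the submitters' notes reads were mapped with BWA to mm10 (version not given in the sources used here). ERCC spike-in rows were dropped, and wells with over 2000 counts and under 8000 genes were kept. Doublets were not called. Counts were summed per plate and group, rounded, filtered with filterByExpr, scaled by TMM and fitted with edgeR 4.0.16 (R 4.3.3) with plate as a block; both sums of a plate come from the same plate, and their deviations correlated at 0.30, 0.20 and 0.04. The 4 keratins that chose the wells were not tested. CPM values use the total of the sum. Genes were named by rule: up to 12 each way by fold among calls with at least 50 CPM, up to 4 calls per list with at least 20 CPM or else the 2 highest members, the identity and YAP genes of the study, and Krt18; genes outside it were chosen after their values were seen. The wells, members and 31 gene lists were chosen with earlier results of these data known. Tested on counts drawn from the real means with changed genes, the fit recovered 54.9% of 2-fold and 98.8% of 4-fold changes. It called 4 of 6454 unchanged genes. The draw used the same dispersion (0.023) for all genes, so these shares hold for the simulation and not for the real spread between plates. Replicate 2 of Collagen I is not used here. The alternatives included DESeq2 1.42.0 and limma 3.58.1. Positions are from GENCODE vM21.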

Additional observations from a re-analysis of the deposited data

Results flagged for a closer look

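Cyr61 and Plod1 differed in direction between the matrices: each was higher in Krt8-high wells on all 3 BME plates and lower on both Collagen I plates. Cyr61 was 436 CPM in Krt8-high and 817 CPM in Krt8-low wells of Collagen I over the pooled plates (log2 ratio of CPM + 1 -0.90), and Plod1 225 against 423 CPM (-0.91). On plate 1, with 3 Krt8-low wells, the gap was small: Cyr61 was 356 against 404 CPM (-0.18) and Plod1 226 against 252 CPM (-0.16). On plate 3 Cyr61 was 558 against 994 CPM (-0.83) and Plod1 224 against 497 CPM (-1.14). The lower values therefore rested mostly on plate 3. The difference between the matrices was not tested, and the Krt8-low side rests on 14 wells. The Collagen I wells were also shallower, and the same thresholds chose unlike classes in the 2 matrices.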

How the results depend on the processing

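The direction of the 56 called genes stayed the same in each of the 22 alternatives wherever they were tested, while the number of calls moved. Leaving out 1 plate gave 1 (without plate 1) to 243 calls, 1 to 152 higher and 0 to 91 lower. With no replicate block, that is without the pairing by plate, there were 7 calls, 6 higher and 1 lower, all among the 56. Library sizes alone gave 100 (81 higher, 19 lower), DESeq2 36 (29 and 7), limma-voom 104 (86 and 18) and no filter on low counts 235 (137 and 98). Wells thinned to 2000 counts gave 4 (2 and 2) over the 598 genes that passed the filter, and non-cycling wells 5 (4 and 1) over 2864. A basal threshold of 15 gave 22, 12 of them higher, with Krt8-high wells at 18.9% of basal wells. Krt8 at least 10 against under 1 gave 0 (0 higher, 0 lower; 215 of 2214 genes at an unadjusted p under 0.05 by edgeR). That setting left 2 Krt8-high wells on plate 1, none on plate 2 and 3 on plate 3. Chosen after seeing the data, wells under 20% on chromosome M gave 26 lower calls and equal weights of wells 30 (24 and 6). The filter of under 10% of counts in mt- genes removed no well. Genes without a call changed sign as follows: Cd14 to 0.013 (no replicate block), 1.05 (strict Krt8) and 0.025 (without Krt17); Cdh2 to 0.019 (no replicate block), 0.040 (library size), 0.015 (DESeq2), 0.40 (strict Krt8), 0.049 (without Krt17), 0.15 (non-cycling), 0.0048 (without the well with the most Krt8) and 0.058 (equal weights); Cdk4 to 0.028 and Snai2 to 0.13 (equal weights); Jag1 to -1.65 (strict Krt8) and -0.10 (basal 15); Tnc to -0.16 (without that well); Trp63 to -1.10 (strict Krt8). With 1 plate left out at a time, the log2 fold change ran from -0.40 to 0.29 for Cd14, -0.22 to 0.22 for Cdh2, -0.28 to 0.44 for Jag1, -0.26 to 1.91 for Tnc, -0.066 to 0.23 for Trp63 and -0.10 to 0.28 for Yap1. The causes were not tested.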

Other observations

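Groups of genes outside those of the comparisons showed small medians and no call. Cholesterol synthesis had a median log2 fold change of 0.28 over 21 tested genes, with 17 positive, and Hmgcs1, its committed enzyme, was 252, 164 and 190 CPM in Krt8-high and 251, 169 and 200 CPM in Krt8-low wells of BME. The NRF2 and glutathione list had a median of -0.03 over 21 genes, ER chaperones -0.06 over 19, interferon and MHC class I genes -0.01 over 10 and proteasome subunits -0.11 over 35. Mt1, a metallothionein, was 2478, 1938 and 789 CPM against 1165, 927 and 1243 CPM (edgeR adjusted p = 0.472), so plate 3 ran the other way. Of the fibroblast list only Pdgfra could be tested, at 27.9, 17.7 and 9.03 CPM against 22.3, 31.6 and 6.86 CPM, and the leukocyte, endothelial and adipocyte lists had no tested gene.

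Krt8-high wells were 14.0 ± 2.61% of the basal wells of a BME plate (SD, n = 3), intermediate wells 54.1 ± 1.05% and Krt8-low wells 31.95 ± 1.62%. Scd2, a fatty acid desaturase, was 1567, 1087 and 1363 CPM in Krt8-high and 758, 684 and 618 CPM in Krt8-low wells (log2 fold change 0.91, edgeR adjusted p = 0.0108), and Neat1, a long noncoding RNA of paraspeckles, was 339, 646 and 272 CPM against 148, 199 and 115 CPM (log2 fold change 1.36, edgeR adjusted p = 0.00566). Both were named after their values were seen.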
